A study of Mus musculus with 4 samples.

Results

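The miR-322, miR-503, miR-351 and miR-450 cluster is a run of 7 miRNA hairpins on the mouse X chromosome, and its 5p miRNAs were followed here in small RNA from the embryonic forebrain. Its members were chosen by name: mmu-miR-322-5p, mmu-miR-503-5p, mmu-miR-351-5p, mmu-miR-450a-5p, mmu-miR-450b-5p and mmu-miR-542-5p, written from here on without the species prefix. All 6 had a count, among 1059 mature miRNAs listed and 634 with a count in at least 1 library. The libraries came from the rostral-most telencephalic primordium of E11.5 embryos, 2 from Rx-Dicer mutants and 2 from controls. Rx-Dicer mutants carry RxCre and floxed Dicer alleles on both chromosomes, so that Dicer, the enzyme that cuts miRNA hairpins, is deleted where Cre under Rx (Rax) control has been active. Controls are labelled WT, and the study design gives them as DicerF/F, the same floxed alleles without Cre. Rx3-Cre mice were kept on a CD1 background and the floxed line on C57BL/6. Cre recombination in this line differs between regions of the telencephalon, and cells outside the Rx lineage keep Dicer. The number and sex of the embryos behind each library are not given in the sources used here, so that p-values measure the spread between these libraries.

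The miRNAs of this cluster lie close together in the same orientation and can be cut from shared primary transcripts. miR-322 is the mouse counterpart of human miR-424, and with miR-503 it belongs to the extended miR-15/16 group, known for repressing cyclins and other drivers of the cell cycle. miR-351 has the seed of the miR-125 family, which is known for repressing Lin28 in neural progenitors. A miRNA recognises its targets mainly through this seed, bases 2 to 8 from its 5′ end. The mature sequences are shown, from RefSeq on GRCm38.p6 and with the seed in capitals, because they decide which members can share targets and which could share reads. All 6 members matched by name.
miR-322-5p: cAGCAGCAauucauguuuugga
miR-503-5p: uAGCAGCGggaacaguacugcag
miR-351-5p: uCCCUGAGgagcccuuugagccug
miR-450a-5p: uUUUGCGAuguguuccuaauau
miR-450b-5p: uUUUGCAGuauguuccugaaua
miR-542-5p: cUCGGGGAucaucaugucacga
miR-16-5p: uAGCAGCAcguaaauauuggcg
miR-125a-5p: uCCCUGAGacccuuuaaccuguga
miR-16-5p and miR-125a-5p are no members and stand for the families that share a seed with miR-322-5p and miR-351-5p. The 6 members carry 6 different seeds. Aligned from the 5′ end without gaps, the seeds of miR-322-5p and miR-503-5p have the same base at 6 of 7 positions, and those of miR-450a-5p and miR-450b-5p at 5 of 7. Over the whole molecule the latter pair matched at 15 of 22 positions, and miR-351-5p matched miR-125a-5p at 10 of 24.

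On mm10 the hairpins span chrX:53047997-53054349 on the minus strand, a stretch of 6353 bases. In the direction of transcription Mir322 comes first (chrX:53054255-53054349). Mir503 (chrX:53053984-53054054) follows after a gap of 200 bases, and Mir351 (chrX:53053255-53053353) after a further 630. Mir542 (chrX:53049403-53049487) lies 3767 bases beyond Mir351. It is followed by Mir450-2 (chrX:53048299-53048367), Mir450-1 (chrX:53048154-53048244) and Mir450b (chrX:53047997-53048078), with gaps of 1035, 54 and 75 bases. RefSeq places 3 of the 7 hairpins, Mir322, Mir503 and Mir351, inside the span of the non-coding gene C430049B03Rik (chrX:53053112-53057190). The GENCODE M21 model of that gene (chrX:53055046-53057190) stops short of Mir322, and no GENCODE gene encloses any of the 7 hairpins.

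Library totals over mature miRNAs were 516517 and 651031 counts in the mutants against 1133553 and 1299067 in controls, so that the mutant libraries were shallower. Levels are given as scaled CPM, counts per 1000000 after edgeR's TMM scaling, so that each level is set against the rest of the miRNAs in its library. The neural miRNA miR-9-5p took 28.2% to 42.6% of each library. Counts of 3, taken as the detection floor, correspond to 2.49 to 5.12 scaled CPM. The 5 listed neural miRNAs summed to 243464 and 262185 scaled CPM in mutants and 344458 and 526755 in controls, without overlap. Nearly all of this was miR-9-5p (240963 and 259155 against 339853 and 524056). miR-124-5p was separated in the same direction, whereas miR-128-1-5p and miR-92b-5p overlapped between genotypes. miR-128-2-5p was separated too, but with 1 and 4 counts in mutants and 22 and 7 in controls it could not be tested. Over all miRNAs tested, both mutant libraries lay below both controls for 24.5%. All 4 neural markers that could be tested had adjusted p from 0.344 upwards (edgeR's quasi-likelihood test). Summed over their lists, red-cell miRNAs (3 of 3 tested) ranged from 5737 to 8504 scaled CPM and eye miRNAs (4 of 5 tested) from 1424 to 14156. Epithelial miRNAs (2 of 3 tested) ranged from 15.8 to 331, and the endothelial miR-126a-5p from 244 to 431. There were 0 calls in the red-cell, eye, epithelial and endothelial lists (lowest adjusted p from 0.473 to 0.990, edgeR's quasi-likelihood test). Of all miRNAs tested, 2.55% were called. In lists this short, 0 calls say little about cell content. The neural, epithelial and endothelial lists hold 5p arms only, and the other arms were not analysed here.

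miR-351-5p was the most abundant member in every library. Its counts were 3200 (library 1) and 2006 (library 2) in Rx-Dicer mutants against 5023 (library 1) and 3098 (library 2) in controls, the order kept for each member. As scaled CPM these were 4206 and 3421 in mutants and 4174 and 3359 in controls. Each genotype thus had a higher and a lower library at almost the same values, and the groups overlapped. Mutants averaged 3813 ± 556 against 3767 ± 577 for controls (SD, n = 2 libraries each). This gave a log2 fold change of 0.02 (SE 0.27, edgeR adjusted p = 0.990), with a 95% interval from 0.658-fold to 1.56-fold. With equal red-cell miRNAs as the scaling it was −0.39, and with total counts only 0.41. miR-351-5p ranked 42nd of the 274 miRNAs tested by mean level.

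**Figure D1:**
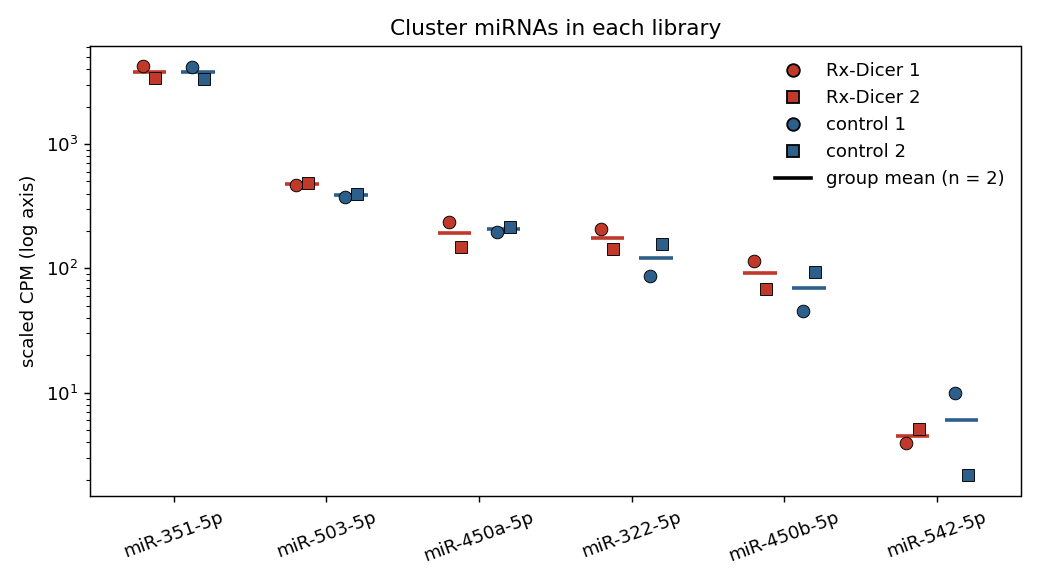
Scaled CPM (log axis) of the 6 cluster miRNAs in each library, with mutants in red, controls in blue, circles for replicate 1, squares for replicate 2 and lines for group means (n = 2). miR-351-5p lies between 3359 and 4206 in the 4 libraries, miR-542-5p near the detection floor, and only for miR-503-5p do both mutant libraries lie above both control libraries.

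miR-503-5p, a miR-15/16 relative with a seed of its own, was the second most abundant member. Its counts were 358 and 284 in mutants and 454 and 366 in controls. In scaled CPM it stood at 471 and 484 in mutants, and at 377 and 397 in controls. Both mutant values lay above both control values, a separation seen in 1 of the 5 members tested and in 17.9% of all miRNAs tested. Its pooled within-group SD was 0.042 on the log2 scale, against a median of 0.30 over all miRNAs tested. With 2 libraries per genotype, such an SD cannot tell a steady miRNA from one whose values happened to lie close. The fold change was small, 0.30 on the log2 scale (SE 0.23, edgeR adjusted p = 0.659), and its 95% interval ran from 0.852-fold to 1.78-fold. It became negative (−0.11) when libraries were scaled to equal red-cell miRNAs, which shifted the median of all tested miRNAs from 0.04 to −0.37. Relative to that median it was 0.27 with TMM and 0.26 with equal red-cell miRNAs.

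miR-322-5p, the first hairpin of the run, had far fewer counts than its neighbour. It had 159 and 84 counts in mutants and 105 and 144 in controls. Its scaled CPM were 209 and 143 in mutants and 87.3 and 156 in controls, so that control library 2 lay between the mutants and control library 1 stood below the other libraries. This corresponded to a log2 fold change of 0.54 (SE 0.38, edgeR adjusted p = 0.638), and the 95% interval, 0.780-fold to 2.71-fold, includes no change. It was 0.21 without control library 1 and 1.01 without control library 2.

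miR-450a-5p is made from Mir450-2 and Mir450-1, whose mature sequences are identical, and reads were listed under both, with 181 and 176 counts in Rx-Dicer library 1 and 238 and 238 in control library 1. The larger row was used. It gave 181 and 88 counts in mutants and 238 and 200 in controls, or 238 and 150 scaled CPM in mutants and 198 and 217 in controls. The mutant libraries lay on either side of the controls. For miR-450a-5p the log2 fold change was −0.09 (SE 0.32, edgeR adjusted p = 0.963), with a 95% interval from 0.562-fold to 1.57-fold, and its sign turned with total counts only (0.32) and with upper-quartile scaling (0.011).

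miR-450b-5p, from the last hairpin, had 87 and 40 counts in mutants and 55 and 86 in controls. Scaled CPM were 114 and 68.2 in mutants against 45.7 and 93.2 in controls, again with control library 1 lowest and the groups overlapping. A log2 fold change of 0.41 resulted (SE 0.45, edgeR adjusted p = 0.804), and the 95% interval was the widest among the 5 members tested in log2 units, from 0.640-fold to 2.75-fold. Without Rx-Dicer library 1 it was −0.017.

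miR-542-5p lies between the upstream and downstream hairpins and had 3 and 3 counts in mutants and 12 and 2 in controls. Only control library 1 exceeded the floor of 3 counts. It did not reach the minimum of 10 counts in at least 2 libraries, and no fold change is given. The other arm of each hairpin was not analysed here.

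**Figure D2:**
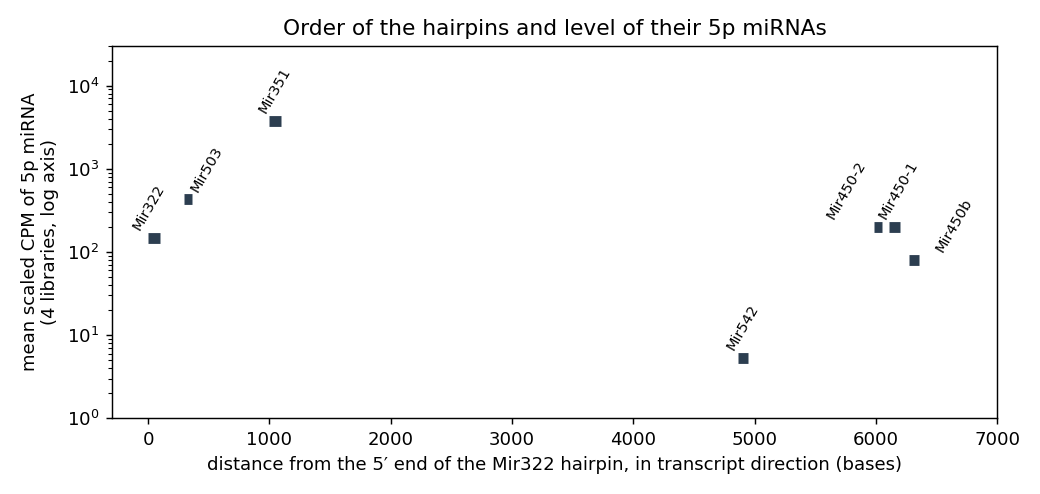
Mean scaled CPM over the 4 libraries (log axis) of the 5p miRNA of each hairpin, against the distance of the hairpin from the 5′ end of Mir322 in bases, with the thick marks as wide as the hairpin. The 5p level is highest for Mir351, 996 bases downstream of Mir322, and lowest for Mir542, 4862 bases downstream. The other arms were not analysed here. Mir450-2 and Mir450-1 are both drawn at the level of their shared mature miRNA.

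The order of levels was miR-351-5p, miR-503-5p, miR-450a-5p, miR-322-5p, miR-450b-5p and miR-542-5p in the means of the 4 libraries. Each miRNA is covered by a single read, so no length correction was made, and differences in ligation between sequences enter such comparisons. miR-351-5p exceeded miR-503-5p by 7.06 to 11.1 times within a library. miR-450a-5p and miR-322-5p, adjacent in the order of mean levels but not on the chromosome, were not separated in every library. Their ratio was 1.14 (95% Wilson-based interval 0.920 to 1.41) and 1.05 (0.778 to 1.41) in the mutants, and 2.27 (1.80 to 2.85) and 1.39 (1.12 to 1.72) in control libraries 1 and 2. These intervals cover counting error only.

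None of the 5 members tested was called in either direction between Rx-Dicer mutants and controls (edgeR's quasi-likelihood test, adjusted p under 0.05). Over all 274 miRNAs tested, 2.55% were called lower and 0% higher. With unadjusted p under 0.05 the members numbered 0 of 5 as well, where all miRNAs gave 8.39% for lower and 1.09% for higher levels. With total counts only the members numbered 2 of 5, where 51 of the 274 miRNAs were higher and 10 lower. DESeq2's Wald test called 0 of 5 (adjusted p from 0.802 to 0.984). The log2 fold change was positive for 4 of the 5 and for 54.4% of all miRNAs tested, and its median was 0.30 for the members and 0.04 over all. Without Rx-Dicer library 1 both medians were −0.017. The 5 standard errors ranged from 0.23 to 0.45 around a median of 0.34 for all miRNAs. Both mutant libraries lay below both controls for 0 of the 5 members and for 24.5% of all miRNAs.

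The summed counts of the 6 members show how scaling enters. Its share of all miRNA counts was 0.613% (95% Wilson interval 0.594 to 0.632) in Rx-Dicer library 1 and 0.485% (0.466 to 0.504) in Rx-Dicer library 2. The control libraries had 0.453% (0.442 to 0.465) and 0.344% (0.333 to 0.355). Both mutant shares lay above both control shares. Higher shares in mutants were not particular to the cluster. With total counts only, fold changes were negative for just 21.9% of the 274 miRNAs tested, and their median was 0.44 in log2 units. How many of them separate by genotype on this basis was not counted. As scaled CPM the sum was 5242 and 4271 in mutants and 4892 and 4224 in controls, and the groups overlapped. Mutants averaged 4757 ± 686 against 4558 ± 473 for controls (SD, n = 2 each), a log2 ratio of 0.061, smaller than the pooled SD of 0.18. miR-9-5p, which is in the denominator of the share, took 28.2% and 29.4% of mutant libraries and 31.5% and 42.6% of control libraries. Without miR-9-5p in the total the shares were 0.853% and 0.687% in mutants and 0.661% and 0.599% in controls.

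Shares of the cluster's counts within a library do not depend on scaling. For miR-351-5p, miR-322-5p and miR-450b-5p control library 1 had the most extreme share. miR-351-5p held 80.2% and 80.1% of cluster counts in mutants and 79.5% in control library 2, but 85.3% (95% Wilson interval 84.4 to 86.2) in control library 1. miR-322-5p held 3.99% and 3.35% in mutants and 3.70% in control library 2, and 1.78% (1.48 to 2.15) in control library 1, below the intervals of the other libraries. miR-450b-5p held 2.18% and 1.60% in mutants and 2.21% in control library 2, and 0.934% (0.719 to 1.21) in control library 1. Rx-Dicer library 2 lay between the others for miR-450b-5p, and its interval (1.17 to 2.17) overlapped that of control library 1. miR-450a-5p held 4.54% and 3.51% in mutants and 4.04% and 5.13% in controls, with control library 1 inside the range of the others. For miR-503-5p the highest share was 11.3% (10.2 to 12.6) in Rx-Dicer library 2 and the lowest 7.71% (7.06 to 8.42) in control library 1.

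**Figure D3:**
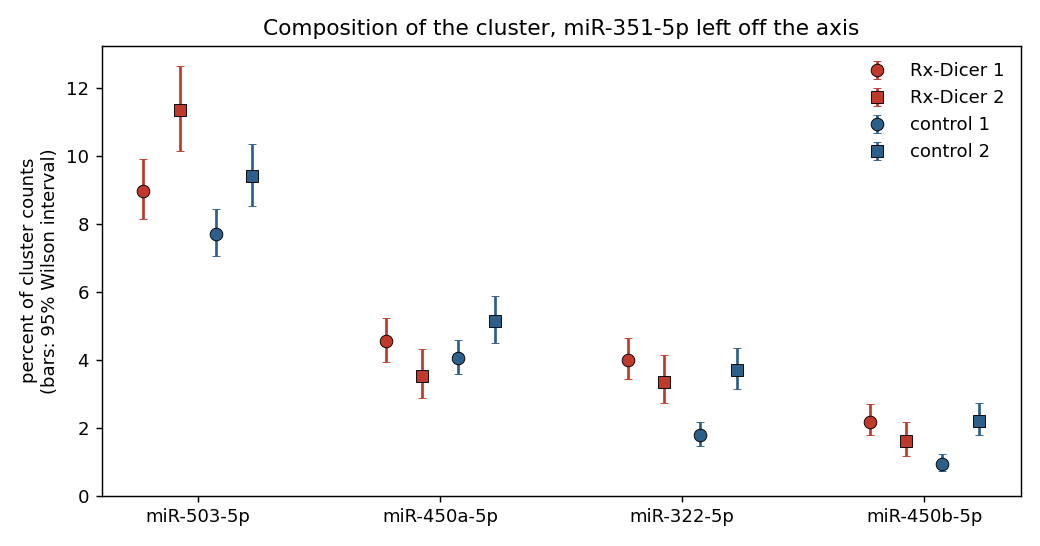
Percent of cluster counts held by 4 members in each library, with 95% Wilson intervals for counting error. miR-322-5p and miR-450b-5p are lowest in control library 1, at 1.78% and 0.934%. For miR-450b-5p the interval of Rx-Dicer library 2 overlaps that of control library 1, and miR-450a-5p is lowest in Rx-Dicer library 2, at 3.51%.

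The members that kept the steadiest ratio were those from opposite ends of the run. miR-322-5p per miR-450b-5p was 1.83 and 2.10 in mutants and 1.91 and 1.67 in controls, a range of 1.25-fold, the narrowest of the 10 pairs among the 5 members tested. miR-351-5p per miR-450a-5p came next, at 17.7 and 22.8 in mutants and 21.1 and 15.5 in controls (range 1.47-fold). The widest range was that of miR-351-5p per miR-450b-5p, with 36.8 and 50.2 in mutants and 91.3 and 36.0 in controls (2.54-fold). miR-503-5p per miR-450a-5p set Rx-Dicer library 2 apart, with 1.98 and 3.23 in mutants and 1.91 and 1.83 in controls (1.76-fold). miR-503-5p and miR-322-5p, which are 200 bases apart, had ratios of 2.25 and 3.38 in mutants and 4.32 and 2.54 in controls (1.92-fold).

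Markers of mesenchyme, the connective tissue that borders the neuroepithelium, were lowest in control library 1, as were miR-322-5p and miR-450b-5p. Summed over the 7 listed mesenchymal miRNAs (among them miR-199a-5p, miR-214-5p, miR-143-3p and miR-145a-5p), levels were 16599 and 16346 scaled CPM in mutants, 6931 in control library 1 and 16306 in control library 2. Most of this sum was miR-199a-5p (10431.5 and 10096.2 in mutants) and miR-143-3p (4272 and 4611), so it was almost equal in the mutant libraries. miR-145a-5p (386 and 261) and miR-143-5p (52.6 and 22.2, from 40 and 13 counts) were higher in Rx-Dicer library 1, as were miR-322-5p and miR-450b-5p. The rest of the list differed less between the mutants. All 7 listed miRNAs were lowest in control library 1, as were miR-322-5p, miR-450b-5p and miR-503-5p, whereas 30.7% of all tested miRNAs were lowest there. Of the mesenchymal miRNAs 0 of 7 were called between genotypes (lowest adjusted p = 0.526, edgeR's quasi-likelihood test), against 2.55% of all miRNAs tested. Per 1000 counts of this list miR-322-5p had 12.6 and 8.76 counts in mutants and 12.6 and 9.57 in controls, a range of 1.44-fold against 2.40-fold in scaled CPM. miR-450b-5p ranged 1.65-fold on this basis against 2.50-fold, whereas miR-351-5p ranged 2.92-fold against 1.25-fold. The range was also wider for miR-503-5p (2.24-fold against 1.28-fold) and miR-450a-5p (3.11-fold against 1.59-fold). In bulk tissue fewer cells of a type and less RNA per cell cannot be told apart, and the part of mesenchyme in the levels of these members was not tested. The muscle list was at or near 0, with 3 of 4 at 0 counts in all libraries and 1 count in all for miR-133a-5p. These are the minor arms of muscle miRNAs, and the major arms were not analysed here.

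**Figure D4:**
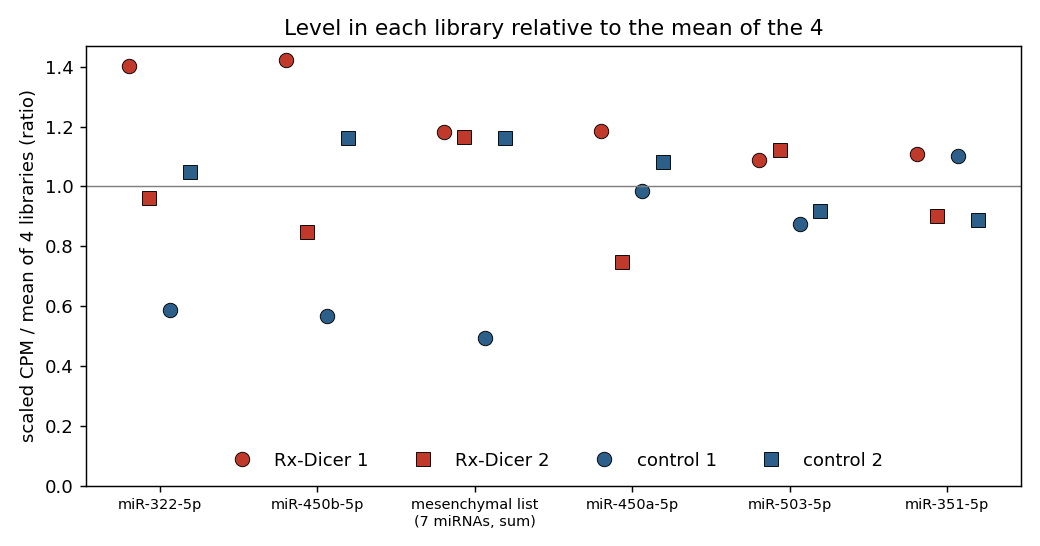
Scaled CPM in each library divided by the mean of the 4 libraries, for 5 cluster members and for the sum of 7 mesenchymal miRNAs (colours and symbols as for the plot of levels by library). Control library 1 stands at 0.586 for miR-322-5p, 0.569 for miR-450b-5p and 0.493 for the mesenchymal sum, and at 1.10 for miR-351-5p.

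miR-322-5p shares its seed with 5 other miRNAs that had a count, and it was a minor part of this pool. Over all libraries miR-16-5p held 75.4% of the counts with the seed AGCAGCA, miR-15b-5p 16.4% and miR-322-5p 4.07%. In the mutants the share of miR-322-5p was 5.91% (95% Wilson interval 5.08 to 6.86) and 4.31% (3.49 to 5.30). It was 2.72% (2.25 to 3.28) and 4.004% (3.41 to 4.70) in control libraries 1 and 2. Both mutant libraries lay above both controls, but Rx-Dicer library 2 and control library 2 differed by less than their counting intervals. In scaled CPM, both mutant libraries lay above both controls for 17.9% of all miRNAs tested. Mutants averaged 5.11% ± 1.13 against 3.36% ± 0.908 for controls (SD, n = 2 each, two-sided exact permutation p = 0.333, which is the lowest value possible with 2 against 2). The pool as a whole stood at 3539 and 3325 scaled CPM in mutants and 3208 and 3899 in controls. Of the 7 miRNAs listed for the miR-15 family 6 were tested and 0 were called, against 2.55% of all miRNAs tested. Their log2 fold changes ran from −0.45 to 0.32, and miR-497b of that list carries another seed.

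miR-351-5p likewise contributed a small share of the counts with the seed CCCUGAG, which it shares with miR-125a-5p and miR-125b-5p. Its share in the mutants was 9.56% (95% Wilson interval 9.25 to 9.88) and 8.99% (8.62 to 9.37). The share was 7.76% (7.55 to 7.96) and 5.90% (5.70 to 6.11) in control libraries 1 and 2. The groups did not overlap, with means of 9.28% ± 0.404 for mutants against 6.83% ± 1.31 for controls (SD, n = 2 each, two-sided exact permutation p = 0.333, again the lowest possible). In scaled CPM, 17.9% of all miRNAs tested were separated in this direction and 24.5% in the other. miR-125a-5p and miR-125b-5p, the rest of this pool, were both lower in both mutant libraries than in both controls. The scaled CPM of miR-351-5p itself overlapped between genotypes, as given above, while miR-125a-5p and miR-125b-5p had log2 fold changes of −0.43 and −0.50 that did not pass the threshold (edgeR adjusted p = 0.594 and 0.526). miR-503-5p, miR-450a-5p and miR-450b-5p shared their seed with no other miRNA that had a count.

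The miR-106a cluster lies 305429 bases from the hairpins described here on the X chromosome, and belongs to the miR-17-92 group, known for promoting proliferation. 5 of its 6 listed 5p miRNAs were tested, and all 5 log2 fold changes were positive, from 0.05 to 0.66. For miR-106a-5p, miR-18b-5p and miR-20b-5p both mutant libraries lay above both control libraries, with log2 fold changes of 0.66, 0.60 and 0.63 (edgeR adjusted p = 0.473, 0.482 and 0.473, 0 of 5 called). Over all miRNAs tested, 17.9% were separated in this way and 2.55% were called.

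**Figure D5:**
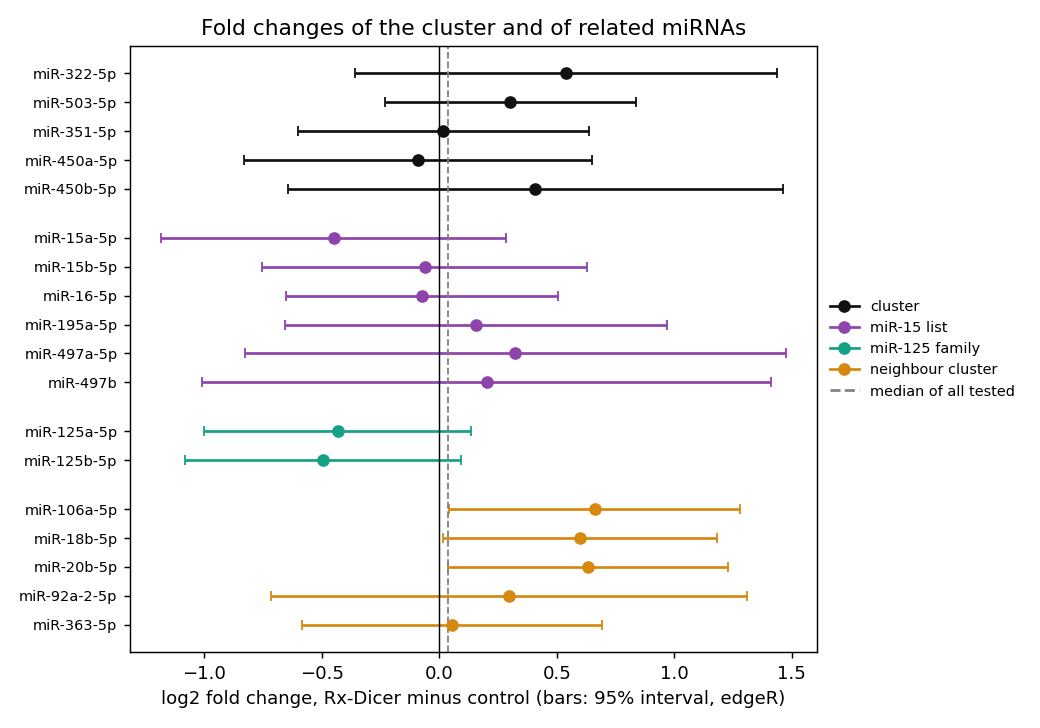
Log2 fold changes of Rx-Dicer mutants against controls with 95% intervals from edgeR, for the 5 cluster members tested, the miR-15 list, the miR-125 family and the neighbouring miR-106a cluster. The dashed line is the median of the 274 miRNAs tested (0.04). The intervals of all 5 cluster members include 0.

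The miRNAs with the profile most like the summed cluster were sought among 133 others with at least 100 counts in each library, as the smallest distance between centred log2(scaled CPM + 0.5) values over the 4 libraries. The closest 5 were miR-541-5p (distance 0.14), miR-146a-5p (0.14), miR-337-5p (0.15), miR-224-5p (0.25) and miR-674-5p (0.25). miR-351-5p made up 79.5% to 85.3% of the summed counts, so this profile is mostly that of miR-351-5p and does not stand for every member. Among the members themselves, miR-322-5p and miR-450b-5p were the closest pair (0.23), and miR-351-5p and miR-450b-5p the most distant (1.08).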

How the data were processed

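Small RNA of 4 libraries was prepared with the NEB Next Small RNA kit and sequenced with 75-base single-end reads. The authors mapped and counted the reads in miRDeep2 against mm10 and miRBase 22, and the deposited values are raw counts per pair of mature miRNA and precursor. The version of miRDeep2 and its settings are not given in the sources used here. A read that fits several precursors can be counted on each, so the row with the highest total was kept per mature miRNA.

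A miRNA entered the test if 2 or more libraries had 10 or more counts, which kept 274. They were compared with edgeR 4.0.16 (R 4.3.3, limma 3.58.1), by its quasi-likelihood test with TMM scaling, genotype as the only factor and Benjamini-Hochberg adjustment over all of them, with a threshold of 0.05. Standard errors and 95% intervals come from that test. Alternatives were DESeq2 (1.42.0), other scalings, count minimums and row rules, the replicate number as a factor, and each library left out. Scripts were tested on simulated data. Permutation tests and Wilson intervals used scipy 1.17.1 and Python 3.11.15. PCR copies cannot be told apart, so the Wilson intervals reflect only counting error. The named miRNAs are the members, lists of seed-sharing, neighbouring and marker miRNAs, and the 5 most alike in profile. Members and lists were chosen with earlier results of these data known. Positions and sequences are from RefSeq (GRCm38.p6, the build of mm10) and GENCODE M21.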

Additional observations from a re-analysis of the deposited data

How the results depend on the processing

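Members called lower or higher numbered 0 under every alternative run. Their 49 fold changes with all libraries kept included 7 of opposite sign, none past the threshold: with equal red-cell miRNAs −0.11 for miR-503-5p and −0.39 for miR-351-5p, for miR-351-5p also −0.14 with no count minimum, −0.0017 with the sum over precursor rows and −0.021 with every precursor row, and for miR-450a-5p 0.32 with total counts only and 0.011 with upper-quartile scaling. With each library left out, where a lone library is assumed to vary like the other group, ranges were 0.21 to 1.01 for miR-322-5p, 0.28 to 0.34 for miR-503-5p, −0.14 to 0.22 for miR-351-5p, −0.47 to 0.20 for miR-450a-5p and −0.017 to 1.00 for miR-450b-5p. The log2 ratio of the summed cluster moved from 0.061 to 0.46 with total counts only and to −0.35 with equal red-cell miRNAs, as these scalings moved the median of all tested miRNAs from 0.04 to 0.44 and −0.37. It ranged from −0.094 to 0.20 with each library left out, and was negative without Rx-Dicer library 1 and without control library 2 (−0.041). At an unadjusted p under 0.05, total counts only gave 51 miRNAs higher and 10 lower, equal red-cell miRNAs 0 higher and 61 lower, and the main comparison 3 higher and 23 lower.

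The number of miRNAs called lower, 7 in the main comparison, was 4 with DESeq2's size factors, 0 with total counts only, 3 with upper-quartile scaling, 11 with equal red-cell miRNAs, with every precursor row and with DESeq2's Wald test, 14 with no count minimum, and 0 to 6 with each library left out (1 without Rx-Dicer library 1, 0 without control library 1 and 0 without control library 2). The cause of these shifts was not tested. Adding a replicate block to the model gave 0 calls. Replicate 1 libraries of the genotypes deviated from their group means with a correlation of 0.0825 across 274 miRNAs, and no member was called with the block. The authors compared mutants with littermates, and with 2 libraries per genotype this correlation cannot decide whether libraries were paired. At most 87 counts in a library for miR-450b-5p and 12 for miR-542-5p limit what can be seen of these members.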
